A study of Mus musculus with 8 samples.

Results

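The core of the Notch signaling pathway was examined in 4 mouse tumor cell lines as 10 genes chosen by their place in the pathway. They are the receptors Notch1, Notch2, Notch3 and Notch4, the ligands Jag1, Jag2 and Dll1, and the transcriptional targets Hes1, Hey1 and Hey2. All 10 are among the 18768 genes of the count table, and 9 are among the 15153 genes that passed edgeR's filter on low counts. Hey2, with 20 counts over all libraries, did not pass, and Hey1 passed through the libraries labelled IRF8 KO. Each line was grown from a tumor that methylcholanthrene (MCA), a chemical carcinogen, had induced under the skin of a mouse. MC010 and MC011 came from mice labelled IRF8 KO, whose gene for interferon regulatory factor 8 was disrupted throughout the animal, and MC654 and MC659 came from mice labelled WT, for which the study names the C57BL/6 strain. The labels give no ages. All 4 lines were exposed to MCA in the mouse and passaged in culture before RNA was taken, with 2 libraries per line. The 2 libraries of a line share 1 tumor, and only 2 lines stand against 2. The p-values by label rest on a spread that mixes tumors of a label with libraries of a tumor. They count the libraries as independent. The p-values between lines rest on the spread between libraries of the same tumor alone.

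Notch receptors are single-pass membrane proteins that are switched on by ligands of the Jagged and Delta families on a neighboring cell. Ligand binding exposes the receptor to cutting by ADAM proteases and then by gamma-secretase, which frees the intracellular domain to enter the nucleus. There it joins the DNA-binding protein RBPJ and Mastermind coactivators and turns on genes of the HES and HEY families, which encode basic helix-loop-helix repressors. In mesenchymal cells the pathway is known for restraining differentiation, and it is read out from these target genes because the receptors are controlled largely after translation.

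Library totals ran from 74063616 to 116206078 counts, so that 3 counts, taken as the floor of a library, amounted to 0.0262 to 0.0408 CPM (counts relative to the TMM-scaled library total). Counts of Irf8, the targeted gene, did not match the labels, at 10 to 442 per IRF8 KO library and 0 to 2 per WT library. PCR genotyping of genomic DNA, which the study ran on these lines and which was not analysed here, is a separate check of the labels. The counts are totals over the gene and do not show which exons were read. For that reason the lines are called by their labels throughout. All 8 fibroblast and mesenchymal markers were present, with summed levels of 9690 to 10470 CPM in the libraries labelled IRF8 KO and 14402 to 16142 CPM in those labelled WT. The lower sum came with Fn1, at a mean of 1587 against 7973 CPM, the 1 marker of the list that fell. Pdgfra (258 against 18.2 CPM) and Thy1 (41.3 against 10.8 CPM) rose, and Vim, at 6221 against 4745 CPM, was under the fold threshold. Thy1 was high in MC011 alone, at 70.2 CPM, with 12.3 in MC010 and 12.4 in MC659, and its labels overlapped. Pdgfra was at 71.3 CPM in MC010 and 445 in MC011.

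The promoters of Notch1 and Jag1, the receptor and the ligand that were called higher in the comparison of the labels below, are shown first. They are printed as RefSeq gives them in GRCm38.p6 (mm10), 5′ to 3′ on the strand of the gene and ending where the first annotated exon begins. The capitals mark an N box, CACNAG, a sequence that HES repressors are known to bind. The stretch shown for Jag1 holds none.
Notch1, chr2:26503825-26504072, minus strand: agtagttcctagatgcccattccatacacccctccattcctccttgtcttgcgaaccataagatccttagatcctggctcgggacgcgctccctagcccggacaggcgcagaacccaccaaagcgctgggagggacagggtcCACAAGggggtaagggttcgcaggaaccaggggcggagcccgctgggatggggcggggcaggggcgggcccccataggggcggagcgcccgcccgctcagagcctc
Jag1, chr2:137116645-137116770, minus strand: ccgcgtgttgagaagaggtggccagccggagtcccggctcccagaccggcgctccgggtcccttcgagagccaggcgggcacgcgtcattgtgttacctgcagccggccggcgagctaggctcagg
RefSeq windows of 300 bases, 250 before and 50 after the start site, were held for 8 of the 10 members. Hes1 and Hey1 had no window, so the promoters of these targets were not searched. The window of Notch1 lies inside the annotated gene, since a longer transcript starts upstream of it. Windows were searched on both strands for the RBPJ core TGGGAA, its longer form GTGGGAA, which contains the core, the N box CACNAG and the E box CACGTG. Among the 8 members, Hey2 alone held the RBPJ core, whereas 25.6% of all 32851 windows held it. Hey2 held it in 2 places, both in the longer form, and 0.256% of all windows held the longer form at least 2 times. An N box was found for 4 of the 8 members and in 42.5% of all windows. No member's window held the E box, against 7.15% of all windows. A match is a description of the letters and not a measured site. The Hey2 matches lie at positions -207 to -202 and -3 to 3 relative to the start site, and are shown with the core in capitals because Hey2 is the member with the lowest level.
Hey2, chr10:30842975-30843000, core on the opposite strand: cgcggtggcaTTCCCAcgcctctgcc
Hey2, chr10:30842771-30842796: ggctgcagcgTGGGAAagaacctcca
Of the 58 other pathway genes on the list used here, 46 had a window and 16 of these held the core. They include Lfng, a glycosyltransferase gene described below, where the second match overlaps an E box.
Lfng, chr5:140607196-140607221, core on the opposite strand: agctgggtggTTCCCAgccccttgtc
Lfng, chr5:140607223-140607248: gtatcccacgTGGGAAggagagatct

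In the comparison of the labels, Notch1, Jag1 and Hey1 rose in the libraries labelled IRF8 KO, that is, a receptor, a ligand and a target. The other 6 tested members did not pass the test, and none fell. Hey1 had entered the test only through the libraries where it is high, so its call is no support for the others. With no filter its adjusted p was 0.00309 by edgeR. A call required both an edgeR quasi-likelihood p under 0.05, adjusted by the Benjamini-Hochberg method across the whole table, and a log2 fold change beyond 0.59 in either direction. Among all tested genes, 22.5% were called in this comparison, 13.7% as higher and 8.72% as lower, beside 3 of the 9 members. The median log2 fold change was 1.12 over the 9 tested members and 0.02 over all tested genes. Without Hey1, 2 of 8 tested members were called, with a median of 0.92. The libraries of the labels did not overlap for 4 of the 9 tested members, Notch1, Jag1, Dll1 and Hey1, all with the higher values under the IRF8 KO label. Of all tested genes, 42.5% did not overlap, 22.1% with the higher values under that label and 20.5% with the lower.

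**Figure D1:**
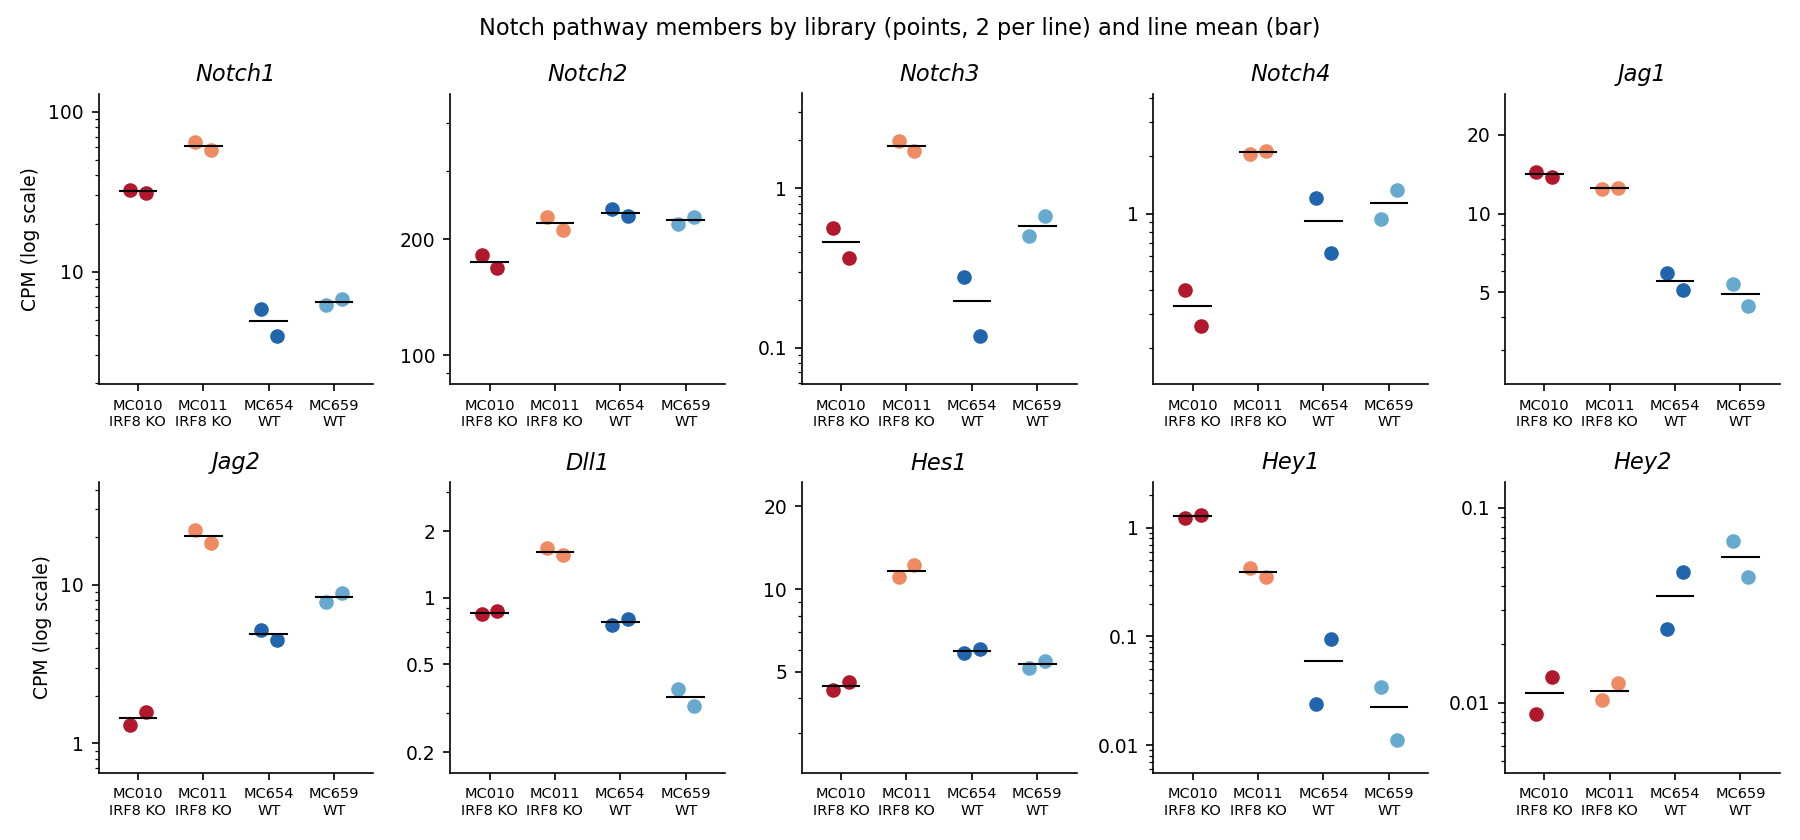
Level of each member in CPM on a log scale, with 1 point per library, 2 per line, and a bar at the line mean. Notch1, Jag1, Dll1 and Hey1 lie higher in all 4 libraries labelled IRF8 KO, while Jag2, Notch4 and Hes1 are highest in MC011 and lowest in MC010.

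Notch1 (ENSMUSG00000026923, mm10 chromosome 2, 26457903 to 26516663, minus strand) was measured at 32.6 and 31.2 CPM in MC010, 65.0 and 57.5 in MC011, 5.84 and 3.95 in MC654, and 6.20 and 6.77 in MC659. The lowest library labelled IRF8 KO was far above the highest labelled WT. The mean was 46.6 ± 17.3 CPM (SD, n = 4) against 5.69 ± 1.22, and the log2 fold change was 3.03 ± 0.30 (SE; adjusted p = 0.000214, edgeR). With line sums, that is, the libraries of a line added up so that 2 lines stand against 2, the adjusted p was 0.0878, the highest of 18 alternatives. That fit called 0 of 16927 genes, with 3658 at an unadjusted p under 0.05, while DESeq2 on the libraries called 3839. Notch1 shares 1068 bases of exon with the antisense gene 0610009E02Rik, which had 23 to 79 counts per library. The reads of the partners can be told apart only where the counting used strand, and the strand option is not given in the sources used here.

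Notch2 (ENSMUSG00000027878, chromosome 3, 98013527 to 98150361, plus strand) was the most abundant receptor and the steadiest. Its libraries held 182 and 168 CPM in MC010, 229 and 211 in MC011, 239 and 230 in MC654, and 220 and 228 in MC659. MC010 was the lowest line and the other 3 lay close together. By label the means were 197 ± 27.6 and 229 ± 7.94 CPM (SD, n = 4), and the log2 fold change was -0.21 ± 0.10 (SE; adjusted p = 0.124, edgeR). MC010 was below MC011 by 0.33 on the log2 scale (adjusted p = 5.30e-05, edgeR), a difference under the fold threshold.

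Notch3 (ENSMUSG00000038146, chromosome 17, 32120820 to 32166880, minus strand) and Notch4 (ENSMUSG00000015468, chromosome 17, 34564268 to 34588503, plus strand), which are best known from vascular mural cells and endothelium, were low. Notch3 had 64 and 27 counts in MC010, 190 and 136 in MC011, 23 and 10 in MC654, and 44 and 60 in MC659. Notch4 had 46 and 19 counts in MC010, 198 and 167 in MC011, 101 and 53 in MC654, and 83 and 120 in MC659. For both genes MC011 was the highest line and the labels overlapped. The log2 fold change by label was 1.56 ± 0.69 for Notch3 (SE; adjusted p = 0.110, edgeR). For Notch4 it was 0.23 ± 0.68 (SE; adjusted p = 0.817, edgeR).

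Some markers of endothelial, smooth muscle and other cells differed by label, while others did not pass the test. Of 8 endothelial markers, 6 were in the table, with summed levels of 0.937 to 2.98 CPM in the libraries labelled IRF8 KO and 0.815 to 1.16 in those labelled WT. Tek and Tie1, receptors of the angiopoietin system, rose with the IRF8 KO label, and Tie1 was at 0 in all 4 libraries labelled WT. Tek was at 0.0227 to 0.0667 CPM in those libraries. Like Hey1, both genes entered the test only through the libraries where they are high, so their calls are no support for a rise of the list. The other 3 tested markers of that list did not pass, with log2 fold changes of -1.12 for Cdh5, -0.69 for Pecam1 and 0.31 for Esam. The summed level of the 7 smooth muscle and pericyte markers was 187 to 211 CPM against 492 to 743, where Acta2 and Tagln fell, Mcam rose and the other 4 did not pass. Of 6 hematopoietic markers 4 were in the table, at 5.72 to 7.38 against 9.67 to 11.4 CPM, and Csf1r fell, while Ptprc and Cd79a were outside the test and Cd68 was under the fold threshold. The 4 epithelial markers summed to 33.3 to 565 CPM against 114 to 129, and Epcam rose while the other 3 did not pass. Epcam reached at most 1.19 CPM. The wide range came from Krt8 and Krt18, at 284 and 264 CPM in MC010 and 1.29 and 31.4 CPM in MC011. In such bulk RNA, fewer cells of a type and less RNA per cell cannot be told apart, and the part of these markers in the levels of the Notch genes was not tested.

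Jag1 (ENSMUSG00000027276, chromosome 2, 137081456 to 137116644, minus strand), whose promoter is printed above, had 14.4 and 13.9 CPM in MC010, 12.5 and 12.5 in MC011, 5.91 and 5.10 in MC654, and 5.36 and 4.44 in MC659. The lines of a label lay close together and the labels did not overlap. The mean was 13.3 ± 0.979 CPM (SD, n = 4) against 5.20 ± 0.612, and the log2 fold change was 1.36 ± 0.13 (SE; adjusted p = 0.000145, edgeR). The adjusted p was at most 0.106 over 18 alternatives, reached with line sums. Jag1 was the one tested member besides Notch2 that was not called between MC010 and MC011, where the log2 difference was 0.18 ± 0.10 (SE; adjusted p = 0.145, edgeR).

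Jag2 (ENSMUSG00000002799, chromosome 12, 112907819 to 112929776, minus strand), the other Jagged ligand, had 1.30 and 1.58 CPM in MC010, 22.3 and 18.3 in MC011, 5.21 and 4.52 in MC654, and 7.84 and 8.95 in MC659. The lines labelled IRF8 KO held the lowest and the highest values, with both WT lines between them. The difference by label was thus 0.71 ± 0.88 on the log2 scale (SE; adjusted p = 0.562, edgeR). MC010 was below MC011 by 3.84 on the log2 scale (SE 0.15, adjusted p = 4.39e-12, edgeR), the widest gap of any member between these lines.

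Dll1 (ENSMUSG00000014773, chromosome 17, 15367354 to 15376872, minus strand), a Delta-like ligand, had 96 and 64 counts in MC010, 161 and 123 in MC011, 63 and 68 in MC654, and 34 and 29 in MC659. On the CPM scale the labels did not overlap, although MC010 at 0.855 CPM was close to MC654 at 0.778 CPM. The log2 fold change by label was 1.12 ± 0.40 (SE; adjusted p = 0.0577, edgeR), and the gene was called by DESeq2, with an adjusted p of 0.0241. Over 18 alternatives the adjusted p of Dll1 ran from 0.00544 to 0.388.

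Hes1 (ENSMUSG00000022528, chromosome 16, 30064384 to 30067796, plus strand), a repressor that responds to Notch and to other signals, had 4.28 and 4.59 CPM in MC010, 11.05 and 12.3 in MC011, 5.85 and 6.02 in MC654, and 5.16 and 5.48 in MC659. MC011 was above and MC010 below both WT lines. By label the log2 fold change was 0.52 ± 0.36 (SE; adjusted p = 0.298, edgeR).

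Hey1 (ENSMUSG00000040289, chromosome 3, 8663359 to 8667256, minus strand) had 141 and 97 counts in MC010, 41 and 28 in MC011, 2 and 8 in MC654, and 3 and 1 in MC659. All 4 libraries labelled IRF8 KO were above all 4 labelled WT, and 3 of the latter were at or under the floor of 3 counts. The log2 fold change was 4.31 ± 0.73 (SE; adjusted p = 0.00261, edgeR). Leaving out 1 library gave 4.00 to 5.09, the highest without the second library of MC654, which held 8 of the 14 counts under the WT label. The summed counts, 307 against 14, gave a ratio of 20.9 after scaling, with a 95% interval from 12.3 to 38.7 that covers counting error only. The adjusted p was 0.0539 with MC659 left out, 0.0683 with the line as a random block in limma-voom and 0.133 with line sums, and otherwise under 0.05 in 15 of 18 alternatives.

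Hey2 (ENSMUSG00000019789, chromosome 10, 30832359 to 30842801, minus strand), the relative of Hey1 known from heart and vessels, had 1 count in each library labelled IRF8 KO and 2, 4, 6 and 4 counts in those labelled WT. It was under the floor in the 4 libraries labelled IRF8 KO and in the first library of MC654. The labels did not overlap, by 1 count against 2 at the closest. The summed counts, 4 and 16, gave 4.19 times as much in the WT libraries, with a 95% interval from 1.35 to 17.2 for counting error only. Hey2 was outside the test, and its direction was the opposite of that of Hey1.

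An exact permutation test of each member's log2(CPM + 0.1), two-sided, gave 0.0286 for Notch1, Jag1, Dll1, Hey1 and Hey2, the smallest p that 4 libraries against 4 allow. Any gene whose labels do not overlap gets this p, and 42.5% of all tested genes did not overlap. It therefore restates the lack of overlap and adds no support. Hey1 had passed the filter only through the libraries where it is high, and Hey2 had not passed it. With line means the smallest possible p is 0.333, so the design cannot reach 0.05 over lines.

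The lines that share the IRF8 KO label differed from each other in most of the members. Between MC010 and MC011, 7 of the 9 tested members were called, 1 higher in MC010 and 6 lower, beside 31.6% of all tested genes, with 15.7% higher and 16% lower. Jag2, Notch4, Notch3, Hes1, Notch1 and Dll1 were lower in MC010. Their log2 differences in that order were -3.84 ± 0.15, -2.61 ± 0.34, -1.97 ± 0.35, -1.40 ± 0.11, -0.94 ± 0.10 and -0.92 ± 0.26 (SE). Hey1 was higher in MC010 by 1.70 ± 0.40 on the log2 scale (SE; adjusted p = 0.00181, edgeR), so that the line with more Notch1 had less Hey1. Hes1, the other measured target, was higher in MC011 (adjusted p = 2.38e-08, edgeR). The WT lines were closer to each other: between MC654 and MC659, 3 of the 9 members were called, 1 higher in MC654 and 2 lower, beside 4.95% of all tested genes, with 1.24% higher and 3.71% lower. Notch3 and Jag2 were lower in MC654, by 1.56 and 0.79 on the log2 scale, and Dll1 was higher there, with a log2 difference of 1.13. Leaving out the second library of MC654 or of MC659 reduced these 3 calls to 1, and without the first library of MC654 the difference of Notch3 was -2.29.

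**Figure D2:**
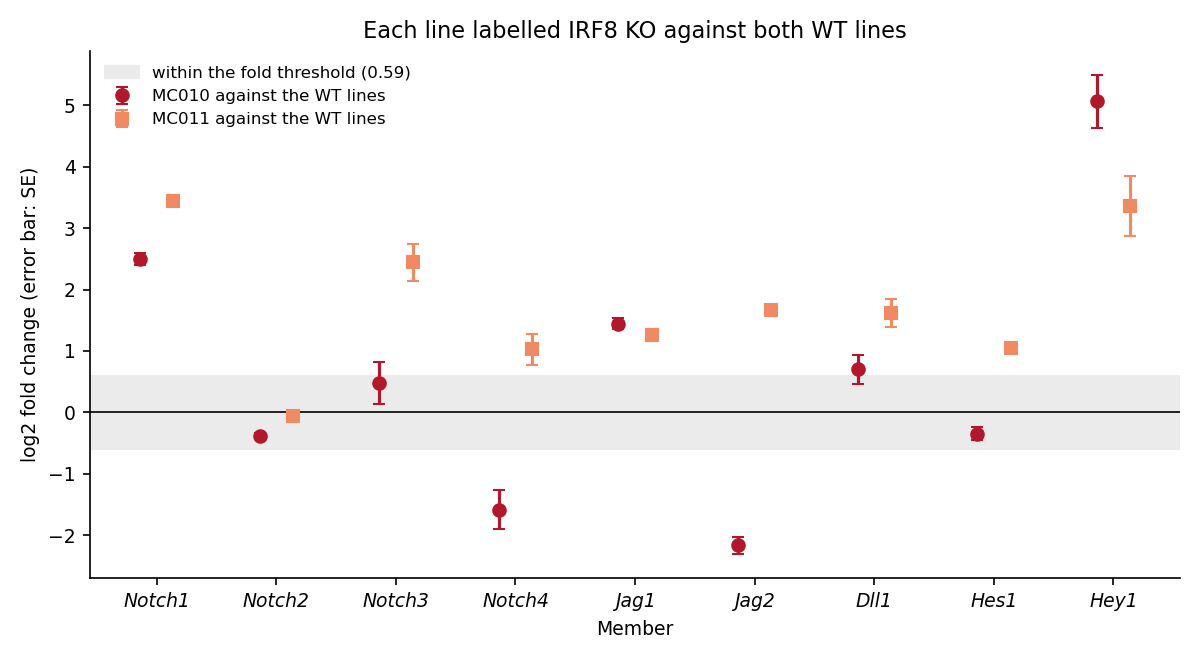
log2 fold change of each line labelled IRF8 KO against the mean of both WT lines for the 9 tested members, with SE as error bars and a grey band for the fold threshold of 0.59. Notch1, Jag1, Dll1 and Hey1 lie above the band for both lines, whereas Notch4 and Jag2 lie below it for MC010 and above it for MC011.

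Each line labelled IRF8 KO was also set against the mean of both WT lines, and these comparisons share the WT libraries. For MC010, 6 members were called, 4 higher and 2 lower, beside 37.1% of all tested genes, of which 19.7% higher and 17.4% lower. Among the 4 higher is Hey1, which passed the filter only through libraries labelled IRF8 KO, so its call is no support for the others. Notch1 was 5.66-fold higher in MC010 (log2 2.50 ± 0.10 SE), Jag1 2.72-fold (1.45 ± 0.09) and Dll1 1.63-fold (0.70 ± 0.24; adjusted p = 0.0149, edgeR). Leaving out either library of MC010 took Dll1 past the threshold, with an adjusted p of up to 0.0638. Jag2 was 4.49-fold lower in MC010 than in the WT lines (log2 -2.17 ± 0.14 SE), and the log2 fold change of Notch4 was -1.59 ± 0.32. Hey1 was higher by 5.07 ± 0.43 on the log2 scale, and by 5.69 without the second library of MC654. Hes1, at -0.34 ± 0.10, and Notch2, at -0.39 ± 0.05, passed the adjusted p but not the fold threshold.

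For MC011, 8 of the 9 tested members were called, all higher, beside 30.7% of all tested genes, with 17.3% higher and 13.4% lower. Hey1 is one of them, and its call is again no support for the others, since the filter passed it only through libraries labelled IRF8 KO. Notch1 was 10.9-fold higher in MC011 (log2 3.44 ± 0.09 SE) and Notch3 5.44-fold (2.44 ± 0.30). Jag2 was 3.18-fold higher (1.67 ± 0.10), Dll1 3.07-fold (1.62 ± 0.22) and Jag1 2.40-fold (1.27 ± 0.09). Hes1 was 2.07-fold higher (1.05 ± 0.09) and Notch4 2.04-fold (1.03 ± 0.26). Hey1 was higher by 3.37 ± 0.49 on the log2 scale, and by 3.99 without the second library of MC654. Notch2, the remaining member, differed by -0.06 ± 0.05 (SE; adjusted p = 0.295, edgeR).

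Along the 4 lines the order of levels was not the same from one member to another. Notch1 fell into the order MC011, MC010, MC659, MC654 at 61.3, 31.9, 6.48 and 4.90 CPM, and only the last neighbors, the WT lines, did not pass the test (adjusted p = 0.0574, edgeR). Jag1 was split by label, with MC010 and MC011 at 14.1 and 12.5 CPM and MC654 and MC659 at 5.50 and 4.90, and neighbors within a label did not pass the test (adjusted p = 0.145 and 0.396, edgeR), although both libraries of MC010 lay above both of MC011. Jag2 ran from 20.3 CPM in MC011 through 8.39 in MC659 and 4.87 in MC654 to 1.44 in MC010, and each step passed the test. For Dll1 the step from MC010 to MC654 did not pass (adjusted p = 0.680, edgeR), although these lines carry different labels. For Notch3 the middle neighbors, MC659 at 0.583 and MC010 at 0.463 CPM, did not pass (adjusted p = 0.483, edgeR). For Notch4 the middle neighbors were the WT lines (adjusted p = 0.593, edgeR), with MC011 above them and MC010 below. Hey1 stepped down from 1.28 CPM in MC010 to 0.390 in MC011, 0.0591 in MC654 and 0.0226 in MC659, and the step between the WT lines did not pass (adjusted p = 0.371, edgeR).

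**Figure D3:**
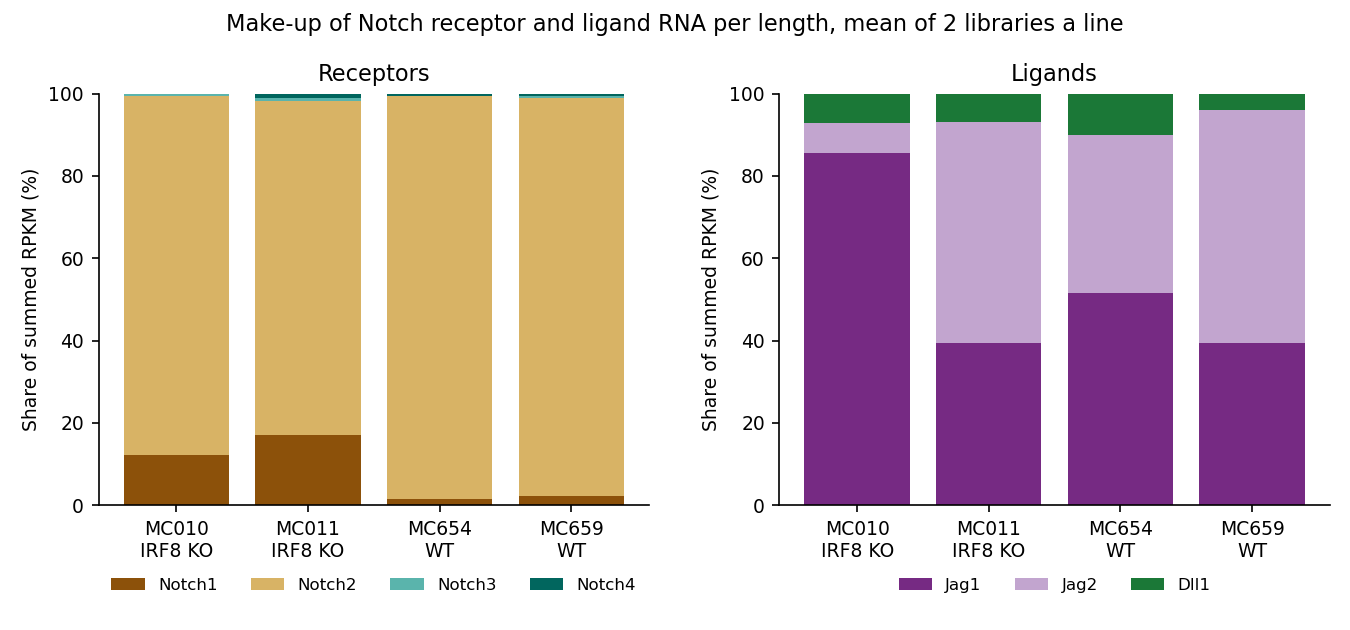
Share of each receptor and of each ligand in the summed RPKM of its class, by line, as stacked bars from the mean of 2 libraries. Per length of merged exons, Notch2 makes up at least 81.0% of the summed receptor RPKM in each line. The Jag1 share runs from 39.5% in MC659 to 85.5% in MC010.

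To compare the genes with each other, levels were also expressed per length, as RPKM over the merged exons of each gene. Notch2, at a mean of 19.8 RPKM over the lines, made up 87.4% of the summed receptor level in MC010, 81.0% in MC011, 97.8% in MC654 and 96.9% in MC659. Notch1 made up 12.1% and 17.1% in the lines labelled IRF8 KO and 1.54% and 2.13% in the WT lines. Notch3 and Notch4 each stayed at or under 1.09% in every library. Thus the receptor with the larger change by label was the minor one in all 4 lines. With the longest transcript as the length, the mean RPKM of Notch1 was 2.76 in place of 1.84, and Notch2 was 20.3. The shares above hold for merged exons, and by the longest transcript the share of Notch1 is larger and that of Notch2 smaller.

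Among the ligands, Jag1 made up 85.5% of the summed RPKM in MC010, 39.5% in MC011, 51.6% in MC654 and 39.5% in MC659. Jag2 made up 7.30%, 53.5%, 38.2% and 56.6% in the same order, and Dll1 the rest, from 3.94% in MC659 to 10.1% in MC654. The ratio of Jag1 to Jag2 per length was 13.2 and 10.5 in the libraries of MC010, 0.666 and 0.816 in MC011, 1.35 and 1.35 in MC654, and 0.817 and 0.592 in MC659. MC010 alone was dominated by Jag1. The mean levels over the lines were 1.59 RPKM for Jag1 and 1.26 for Jag2, and an order that close depends on the length used, since the longest transcripts gave 1.65 and 1.72.

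The targets did not follow a single order. Hes1, at a mean of 3.36 RPKM over the lines, was above Hey1 at 0.134 and Hey2 at 0.00623. Nrarp, a gene of the fixed list of other pathway genes whose product binds the Notch intracellular domain and limits its signal, was ordered as Hey1 was in the lines labelled IRF8 KO. Its libraries had 339 and 196 counts in MC010, 92 and 73 in MC011, 9 and 8 in MC654, and 13 and 15 in MC659. Nrarp rose with the IRF8 KO label by a log2 fold change of 3.85 ± 0.51 (SE; adjusted p = 0.000847, edgeR). Like Hey1, it entered the test through the libraries labelled IRF8 KO, since only 2 of the 4 WT libraries were past the filter's minimum, and with no filter the adjusted p was 0.000933. It was higher in MC010 than in MC011 by 1.58 on the log2 scale (adjusted p = 2.76e-05, edgeR), again against the direction of Notch1.

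**Figure D4:**
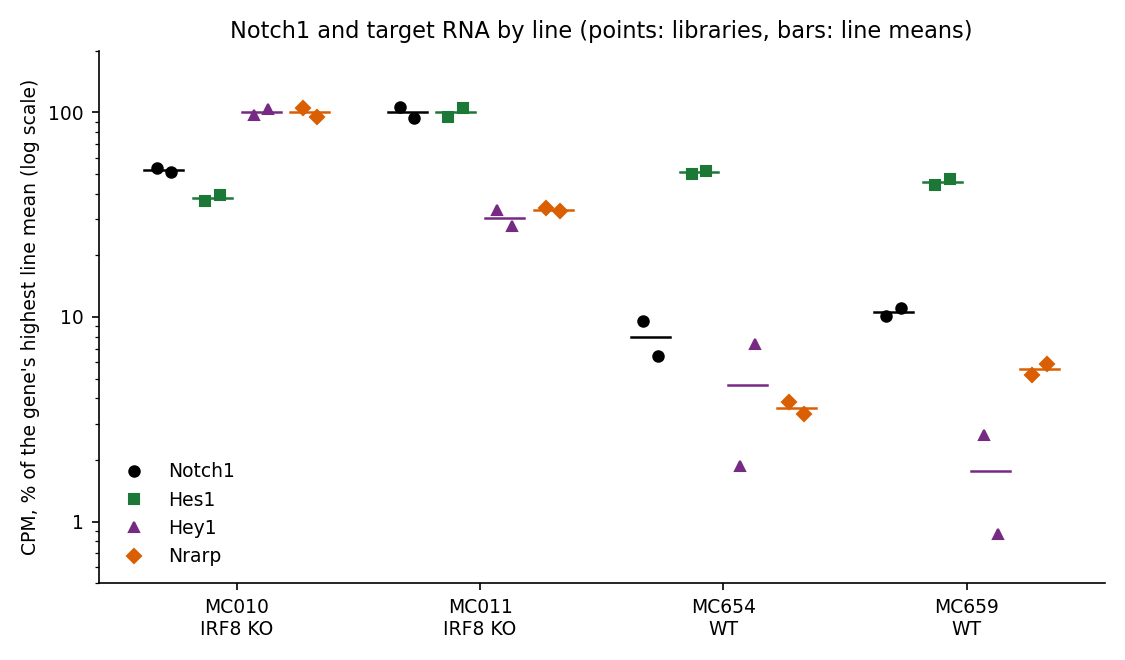
CPM of Notch1 and of the targets Hes1, Hey1 and Nrarp in each library as a percentage of that gene's highest line mean, on a log scale, with bars at the line means. Notch1 and Hes1 peak in MC011, and Hey1 and Nrarp peak in MC010 and lie under 10% of that peak in both WT lines.

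The other genes of the pathway were taken from a list of 58, of which 49 were in the table and 47 were tested. Of these, 11 were called by label, 7 higher and 4 lower under the IRF8 KO label, or 23.4% beside 22.5% of all tested genes, a share close to the background. Their median log2 fold change was 0.07. By group, the calls were 2 of 2 tested other ligands, 5 of 12 genes of ubiquitin ligases and trafficking, 2 of 10 corepressors, 1 of 4 glycosylation genes and 1 of 2 other family members and feedback genes. None of the 10 tested genes of receptor processing and secretase and none of the 7 of the nuclear complex was called by edgeR or by DESeq2. In each of these groups 3 genes passed an adjusted p of 0.05, as many as at an unadjusted p under 0.05, and lay under the fold threshold.

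Dlk1, a Delta-like protein without the domain that activates Notch and a marker of immature mesenchyme, fell the most. It had 33.4 to 44.4 CPM per IRF8 KO library and 1177 to 1378 CPM per WT library, giving a log2 fold change of -5.01 ± 0.11 (SE; adjusted p = 3.24e-07, edgeR). Its relative Dlk2 rose, at 28.5 ± 7.20 CPM (SD, n = 4) against 8.92 ± 1.65, with a log2 fold change of 1.68 ± 0.22 (SE; adjusted p = 0.000739, edgeR). The levels of each gene were separate between the labels.

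Of the listed ubiquitin ligases that drive ligand uptake, Neurl1a and Neurl1b, of the Neuralized family, rose and Mib1 and Mib2, of the Mind bomb family, fell. Neurl1a rose by a log2 fold change of 2.53 ± 0.29 (SE; adjusted p = 0.000383, edgeR). Neurl1b rose by 3.08 ± 0.48, from 20 to 45 counts in the WT libraries to 106 to 405 counts, and was lower in MC010 than in MC011 by 1.38 on the log2 scale. Mib1, at 143 ± 45.7 CPM (SD, n = 4) against 252 ± 8.72, fell with a log2 fold change of -0.82 ± 0.21 (SE; adjusted p = 0.0164, edgeR). Against the WT lines Mib1 had a log2 difference of -1.29 in MC010 and of -0.47 in MC011, which was under the fold threshold, and MC010 was below MC011 by 0.82 (adjusted p = 1.02e-09, edgeR). Mib2 fell to 20.4 ± 1.67 CPM from 34.0 ± 5.87, and the log2 fold change was -0.74 ± 0.13. Dtx3l, a Deltex-family ligase that is also known as an interferon-responsive gene, fell with a log2 fold change of -2.37 ± 0.43, and was higher in MC010 than in MC011 by 1.48 on the log2 scale. With MC659 left out, the adjusted p was 0.119 for Mib1 and 0.0570 for Dtx3l, within ranges over 18 alternatives that reach 0.243 and 0.157.

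Lfng, which adds sugars to Notch receptors and changes which ligands they answer to, rose to 8.15 ± 1.24 CPM (SD, n = 4) from 4.77 ± 0.159, with a log2 fold change of 0.77 ± 0.14 (SE; adjusted p = 0.00384, edgeR). The corepressor genes Tle4 and Tle2, partners of HES proteins, rose by log2 fold changes of 1.51 ± 0.17 and 0.90 ± 0.26. The call of Tle2 held in 7 of 18 alternatives and was lost when any library of a WT line or of MC011 was left out, with an adjusted p of up to 0.0712. Rbpj, the DNA-binding partner of every Notch receptor, was at 445 ± 25.5 CPM (SD, n = 4) against 595 ± 33.1. Its log2 fold change of -0.42 ± 0.06 (SE; adjusted p = 0.00163, edgeR) was under the fold threshold. Adam10, which makes the first cut after ligand binding, had a log2 fold change of -0.02 ± 0.07.

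**Figure D5:**
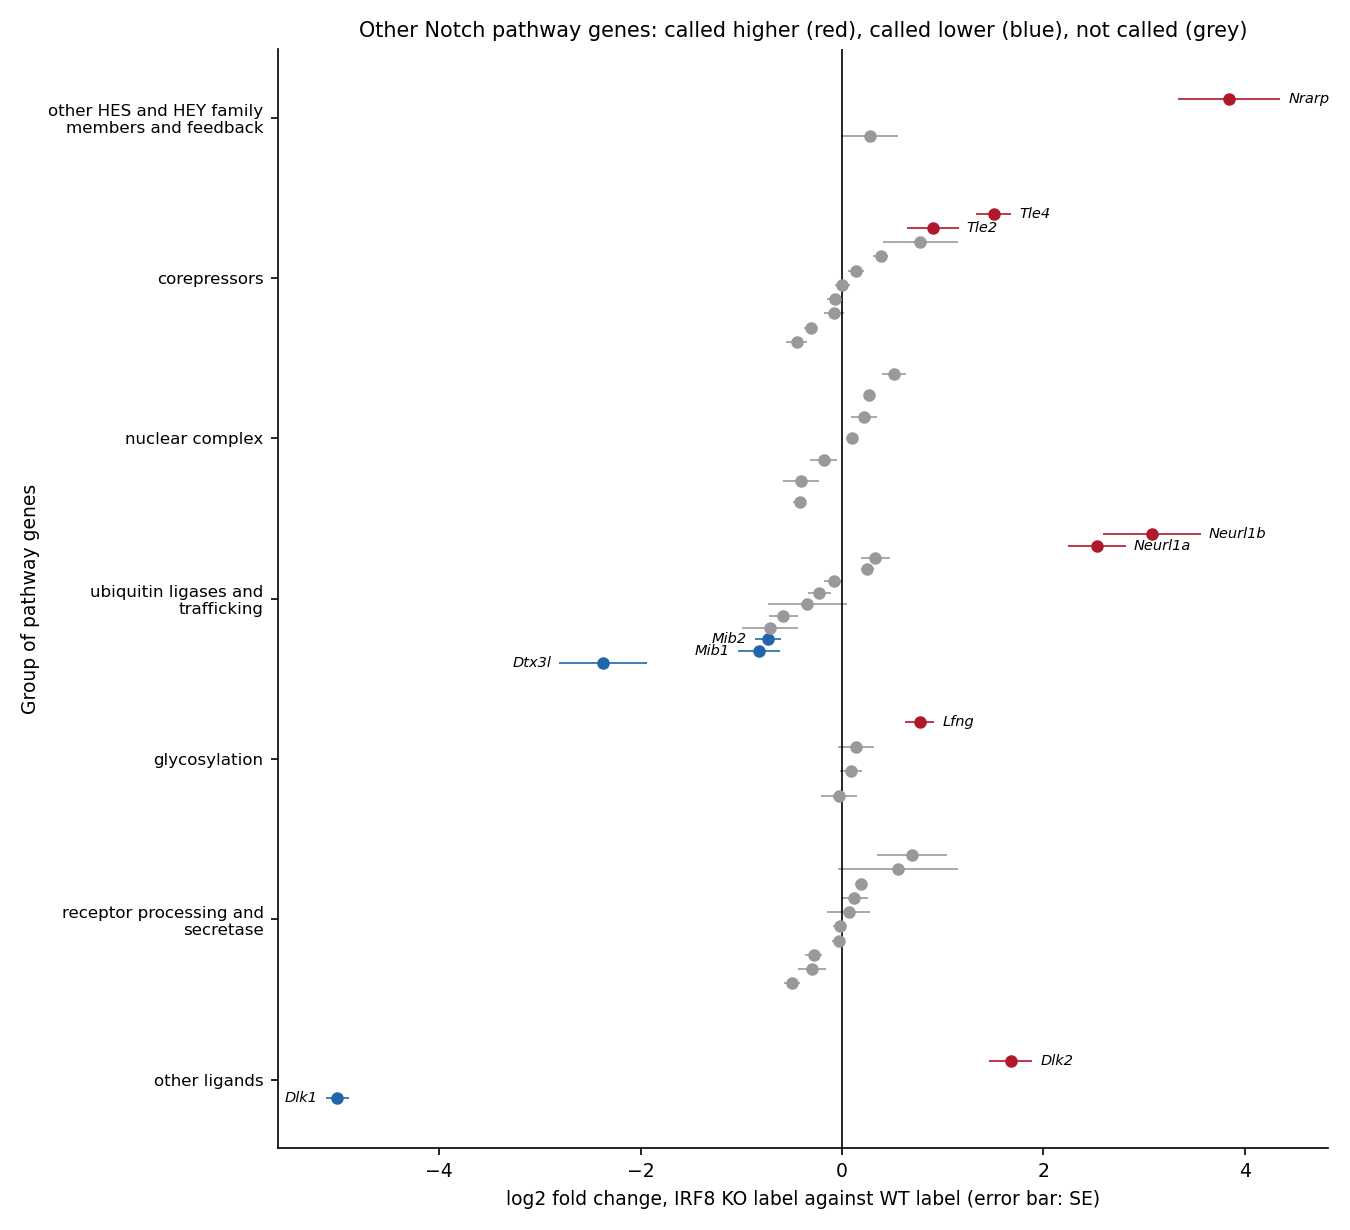
log2 fold change of the 47 tested other pathway genes between the labels, by group, with SE as error bars. Of the 11 called genes, Nrarp and Neurl1b lie farthest to the right and Dlk1 farthest to the left, and the secretase and nuclear complex groups hold no called gene.

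For the 3 members with the widest range of line means among those with a mean log2 CPM of at least 1, the most similar genes were looked up among 10741 genes of the same minimum level. Likeness was the Euclidean distance between log2 CPM profiles over the 8 libraries, each centred on its own mean, so that a smaller value is a closer profile. For Jag2 they were Slc35f2, a solute carrier, at 0.504, Medag at 0.652 and the histone gene Hist1h2bc at 0.882. Slc35f2 had 0.639 CPM in MC010, 9.21 in MC011, 2.78 in MC654 and 4.33 in MC659. For Notch1 they were Tnxb, which encodes a tenascin of the matrix, at 0.428, Crabp2, a retinoic acid binding protein, at 0.449, and the synaptic scaffold gene Shank3 at 0.450. Crabp2 had 26.6, 50.4, 4.34 and 6.05 CPM in the same order of lines. For Jag1 they were the ephrin gene Efna4 at 0.221, the ceramide kinase gene Cerk at 0.246 and the cadherin gene Fat1 at 0.262.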

How the data were processed

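RNA was sequenced from 4 cell lines, 2 libraries each, with a stranded library kit. The authors aligned the reads to mm10 (GRCm38.p6) with STAR 2.7.3a and counted them per gene with HTSeq 0.11.2, as the submitters' processing notes name them, and whether the counting used strand is not given in the sources used here. They deposited raw counts per library, which were used here, and a signal per library, which is the count divided by 1 size factor. Columns of the authors' own DESeq2 comparison (mean signal, log2 fold change and its SE, a score that is the Wald statistic, raw and adjusted p-values) were deposited too and were not used. Each gene of the table had at least 20 counts in all, and no row lies on chromosome X or Y.

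Counts were analysed with edgeR 4.0.16 in R 4.3.3: filterByExpr by label, TMM, and the robust quasi-likelihood test over all 15153 genes. The label fit had no other term, and a second fit had 1 group per line. SEs were derived from the fold change and the F statistic. DESeq2 1.42.0, upper-quartile scaling, no filter, no fold threshold, a replicate block, line sums, limma-voom 3.58.1 with the line as a random block, and leaving out libraries or lines were the alternatives. On simulated counts the label fit recovered 152 of 200 changed genes with 8 false calls among 14872. The fit of MC010 against MC011 recovered 191 of 200 with 2 among 14975. The simulated libraries were drawn independently, with nothing shared by the libraries of a line. In the data these libraries had a consensus correlation of 0.828 in limma-voom. The simulation therefore cannot give the rate of false calls by label in these data. Lengths came from GENCODE M21 and promoters from RefSeq. Floors and counting intervals cover counting error only.

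The 10 members, the lists of other pathway genes and of markers, and the tests were chosen with earlier results of these data known. All members are named; of the other pathway genes, those called by label and Rbpj are named, and for likeness the 3 closest genes. Adam10 and the marker genes were named after their values were seen.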

Additional observations from a re-analysis of the deposited data

Results flagged for a closer look

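Members were looked at again where the effect of the IRF8 KO label against the shared WT lines differed between MC010 and MC011, by the test of that difference itself, which is the comparison of the lines. This held for 7 of the 9 tested members, beside 31.6% of all tested genes called in the same comparison. The difference of MC010 from MC011 was -0.94 for Notch1, -1.97 for Notch3, -2.61 for Notch4, -3.84 for Jag2, -0.92 for Dll1, -1.40 for Hes1 and 1.70 for Hey1 on the log2 scale. The adjusted p-values by edgeR ran from 4.39e-12 for Jag2 to 0.00567 for Dll1, and both libraries of a line lay on the same side in each of the 7. Each line is 1 tumor, so a difference between tumors and a difference between mice cannot be told apart.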

How the results depend on the processing

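Of the tested members, 3 were called by label in the main comparison. With line sums 0 were called by edgeR, with 3 at an unadjusted p under 0.05. With MC010 left out 8 were called, all higher, and with MC011 left out 5, of which 3 higher and 2 lower, so the count by label depends on which line stands for IRF8 KO. Both counts include Hey1, which passed the filter only through the libraries where it is high. Over all tested genes, 4735 of 16095 were called without MC010, 2679 of them higher, and 5827 of 16072 without MC011, 3159 of them higher. The main comparison called 3404 of 15153, so calls rose across the whole table and not only among the members. With no filter 4 were called, Hey2 being the fourth, with a log2 fold change of -1.92 and an adjusted p of 0.0405 from 20 counts. Leaving out 1 library gave 3 to 3 calls by label, 7 to 7 between MC010 and MC011, 5 to 7 for MC010 and 8 to 8 for MC011 against the WT lines, and 1 to 4 between MC654 and MC659, the 1 without the second library of MC654 or of MC659. The other pathway genes gave 11 calls by label, 22 with no fold threshold, 0 with line sums (13 at an unadjusted p under 0.05), 7 with MC659 left out, and 10 to 12 with 1 library left out. Of all tested genes, 5675 of 15153 were called by label with no fold threshold and 1884 of 16295 with MC659 left out. With no filter on low counts 3784 of 18768 were called by label. Leaving out 1 library gave from 2908 of 15448 to 3623 of 15462 genes called by label. For the comparisons between lines, calls over all genes were not counted with a library left out.

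Notch4 reversed by label, to a log2 fold change of -0.16 and -0.18 without the first or the second library of MC011, -0.19 with the line as a random block and -1.62 with MC011 left out. Jag2 reversed to -0.38 with the random block and -2.22 with MC011 left out, and Hes1 to -0.35 with MC011 left out. Leaving out 1 library gave Notch4 a range of -0.18 to 0.55 by label. Notch4 between the WT lines ranged from -0.86 to 0.090, the latter without the second library of MC654. Notch2 in MC011 against the WT lines ranged from -0.12 to 0.0013, the latter without the second library of MC011. None of these 5 values was called in the main comparisons, and the cause was not tested beyond the libraries left out.

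The library numbers do not pair the samples: same-numbered libraries had correlations of deviations from -0.05 to 0.09. With the number as a replicate block, 3 members by label, 7 between MC010 and MC011, 3 between MC654 and MC659, 6 and 8 for MC010 and MC011 against the WT lines and 11 other pathway genes were called, as without it. Over all 15153 tested genes, 3106 were called by label with the block and 3404 without it. Notch1 between MC654 and MC659 had an adjusted p of 0.0181 with the block and 0.0574 without it. Members with few counts, Hey1 in the WT lines and Hey2 in all lines, are limited by depth.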
